A study of Homo sapiens with 9 samples.

Results

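Cathepsins are proteases of the lysosome, and the 10 cathepsin genes described here are CTSA, CTSB, CTSC, CTSD, CTSF, CTSH, CTSK, CTSL, CTSS and CTSZ. They were chosen by gene symbol, with no expression value in the rule, though earlier results of these data were known when they were chosen. Each symbol matched 1 row in all 9 files, which list 60420 gene IDs, and all 10 were among the 13825 genes that could be tested. RNA was measured in A375, a human melanoma cell line, on day 7 after SPANX knockdown, the SPANX genes being a family of antigens made in testis and in some cancers. The 9 libraries form 3 groups of 3, namely SPANX KD 86, SPANX KD 87 and an EV control, and the labels do not expand EV or describe the constructs beyond their numbers. The assay, QuantSeq 3' mRNA-Seq, reads each transcript near its 3' end, so a level does not grow with transcript length.

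Cathepsins are made as inactive precursors, tagged with mannose 6-phosphate in the Golgi, carried to acidic endosomes and lysosomes by sorting receptors, and activated there by cleavage. CTSB, CTSC, CTSF, CTSH, CTSK, CTSL, CTSS and CTSZ cut with an active-site cysteine, CTSD with aspartate residues and CTSA with a serine. Some can be secreted and act on extracellular matrix, and in melanoma and other tumours they have long been studied for this. Many lysosomal genes carry near their start the E-box CACGTG, the core of the element bound by the related factors TFEB, TFE3 and MITF.

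Promoter sequence was looked up for all 10 genes, and 7 had a window in the set of RefSeq promoters used (GRCh38.p14, 250 bases before to 50 after the start of the gene). CTSB, CTSK and CTSS had no window in that set, though they are RefSeq genes, so the E-box was not looked up for them. The 6 letters CACGTG, which read the same on both strands, occurred in 3 of the 7 windows, those of CTSA, CTSD and CTSF, against 2548 of 35116 promoter windows (7.26%). The longer TCACGTGA, which contains it and is also the same on both strands, was found in CTSA alone of the 7, against 0.98% of all windows. Stretches of 130 bases are printed for the 3 windows that hold the E-box, which is in capitals, and for CTSL, whose window does not hold it. They lie at chr20:45891205-45891334 on the plus strand (CTSA), chr11:1763928-1764057 on the minus strand (CTSD), chr11:66568607-66568736 on the minus strand (CTSF) and chr9:87725989-87726118 on the plus strand (CTSL), and each is read in the direction of its gene.
CTSA: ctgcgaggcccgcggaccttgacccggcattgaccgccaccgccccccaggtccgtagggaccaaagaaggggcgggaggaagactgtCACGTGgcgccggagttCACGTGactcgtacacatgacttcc
CTSD: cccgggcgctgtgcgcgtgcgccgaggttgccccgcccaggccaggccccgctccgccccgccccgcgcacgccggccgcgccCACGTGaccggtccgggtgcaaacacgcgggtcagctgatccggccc
CTSF: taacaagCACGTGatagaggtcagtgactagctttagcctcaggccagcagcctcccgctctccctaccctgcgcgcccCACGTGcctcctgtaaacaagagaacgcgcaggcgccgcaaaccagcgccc
CTSL: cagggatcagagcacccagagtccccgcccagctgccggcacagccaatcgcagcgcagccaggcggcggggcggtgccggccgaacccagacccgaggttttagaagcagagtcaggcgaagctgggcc
In CTSA the E-boxes begin 42 and 25 bases before the start of the gene, in CTSD 47 bases before it and in CTSF 123 and 51 bases before it. Such a match describes letters in a window and says nothing of binding.

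Recovered depth was 11.31 to 15.57 M reads a library. The labels do not say whether replicates are separate cultures, so p-values measure only how far these libraries scatter, and that scatter may be technical. Of the SPANX genes, SPANXC was lower in both knockdowns, with a mean level of 59.4 ± 36.0 in KD 86, 25.5 ± 7.89 in KD 87 and 351.4 ± 183.7 in EV (SD, n = 3 each; limma, adjusted p = 0.00371 for KD 86 and 0.00326 for KD 87). SPANXD was lower as well, at 0.674 ± 0.584 in KD 86, 5.96 ± 0.998 in KD 87 and 75.1 ± 41.6 in EV (adjusted p = 0.00016 and 0.00804). The SPANX copies are nearly identical, so reads may be split among them. A375 was checked against 9 melanocyte genes: SOX10, S100A1, S100B and CSPG4 were above 0 in every library. Of the pigment genes, PMEL was low but above 0 in every library, at levels of 3.01 to 32.7. MLANA, TYR, TYRP1 and DCT were listed at 0 in all.

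With SPANX KD 86, 8 of the 10 cathepsins rose against EV and 0 fell, where 18.0% of the 13825 tested genes rose and 17.6% fell. With SPANX KD 87, 3 rose and 0 fell, where 5.87% of tested genes rose and 4.46% fell. CTSA, CTSK and CTSS rose with both constructs, as did 4.03% of tested genes. In the paired fit, which adds the replicate number as a block, 9 rose with KD 86 and 4 with KD 87, and 0 fell. That fit calls more genes in all: 27.0% of tested genes higher and 28.3% lower with KD 86, and 16.2% higher and 14.8% lower with KD 87. All 3 KD 86 libraries lay above all 3 EV libraries for all 10 cathepsins (22.5% of tested genes), and all 3 KD 87 libraries did so for 5 of them, CTSA, CTSB, CTSF, CTSK and CTSS (15.2%). The median log2 fold change over the 10 was 0.99 with KD 86 and 0.29 with KD 87, beside -0.04 and -0.001 over all tested genes. Levels are normalised reads on a scale common to the 9 libraries, and fold changes are on log2 of the level plus 1. The calls are limma's, at a two-sided Benjamini-Hochberg adjusted p under 0.05 over all tested genes, and both constructs are set against the same 3 EV libraries. Together the 10 genes held 0.255%, 0.283% and 0.282% of the reads in the KD 86 libraries, 0.18%, 0.167% and 0.166% in KD 87 and 0.132%, 0.129% and 0.131% in EV. The 3 groups did not overlap in this share, which gives most weight to the genes with the highest levels. The summed level was 21460 to 23750 in KD 87 and 17030 to 18770 in EV. Of these sums CTSA alone averaged 4530 ± 798.8 in KD 87 and 1695 ± 208.1 in EV (SD, n = 3 each). In bulk RNA more cells with a transcript and more transcript per cell cannot be told apart.

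**Figure D1:**
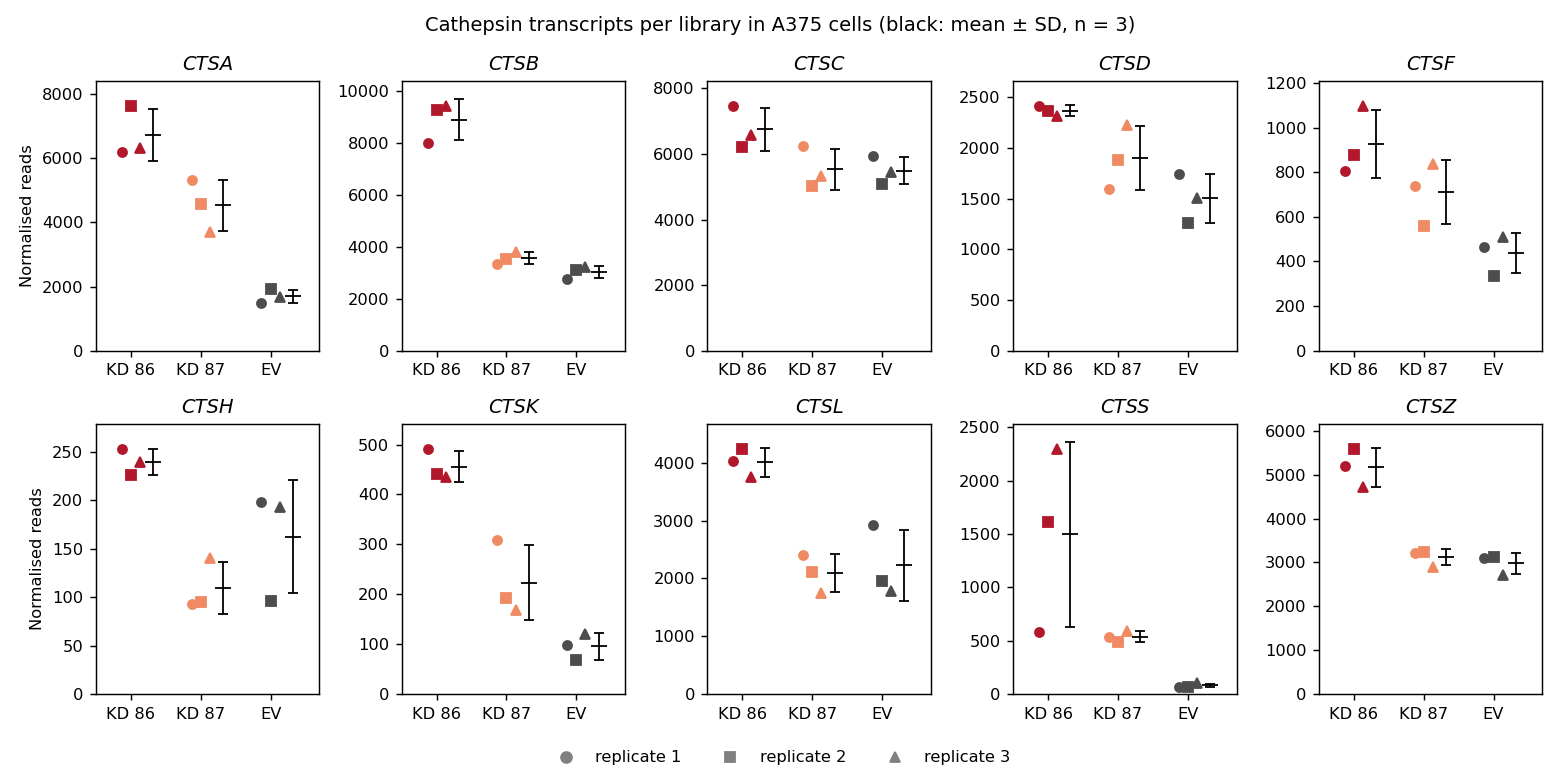
Level of each of the 10 cathepsins in every library (normalised reads on the common scale, y axis starting at 0 in each panel), with SPANX KD 86, SPANX KD 87 and EV from left to right; points are libraries and black marks are the mean ± SD of 3. The KD 86 points lie above all EV points in all 10 panels, and CTSS shows the widest spread within KD 86, from 579.0 to 2299.

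CTSS, a cysteine endopeptidase that stays active at neutral pH and trims the invariant chain of MHC class II in antigen-presenting cells, changed most. Its level was 579.0, 1616 and 2299 in the KD 86 libraries, 531.4, 486.7 and 588.1 in KD 87 and 69.2, 68.5 and 100.1 in EV. Every knockdown library lay far above every EV library, and the first KD 86 library lay among the KD 87 libraries. The rise over EV was 16.3-fold with KD 86 (log2 4.03, SE 0.42, adjusted p = 0.000131) and 6.77-fold with KD 87 (log2 2.76, SE 0.42, adjusted p = 0.00449). Of all tested genes, 27 (0.195%) had a higher log2 fold change than CTSS with KD 86 and 34 (0.246%) with KD 87. The recovered reads behind CTSS numbered 4422 over the KD 86 libraries, 1662 over KD 87 and 231 over EV.

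CTSK, the cysteine cathepsin with which osteoclasts cut bone collagen, also rose with both constructs. Its level was 491.5, 439.9 and 435.4 in KD 86, 308.7, 192.9 and 167.6 in KD 87 and 97.9, 67.5 and 120.0 in EV. The 3 groups were fully separate and ordered KD 86, KD 87, EV. The rise was 4.87-fold with KD 86 (log2 2.28, SE 0.28, adjusted p = 0.000319) and 2.31-fold with KD 87 (log2 1.21, SE 0.28, adjusted p = 0.0233). The KD 87 call ended on leaving out EV replicate 1 (adjusted p = 0.0714), KD 87 replicate 1 (0.104) or KD 87 replicate 2 (0.0589), and with EV and KD 87 fitted alone (0.0611).

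CTSS and CTSK are next to each other among the protein-coding genes of chromosome 1 in RefSeq GRCh38.p14. ARNT, the partner of the hypoxia-inducible factors and the dioxin receptor, stands on the other side of CTSK. ARNT passed the test with neither construct (log2 -0.27, adjusted p = 0.416 with KD 86 and log2 0.48, adjusted p = 0.237 with KD 87). HORMAD1, on the other side of CTSS, was not among the genes tested.

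The cysteine endopeptidases CTSB, CTSL and CTSF, which degrade proteins in lysosomes of most cells, rose with KD 86, and none of them passed the test with KD 87. CTSB, which also acts as an exopeptidase, had levels of 7984, 9255 and 9428 in KD 86, 3338, 3532 and 3789 in KD 87 and 2756, 3122 and 3204 in EV. All KD 86 libraries stood well above the rest, and the KD 87 libraries lay only just above the highest EV library. The change of CTSB was 2.93-fold with KD 86 (log2 1.55, SE 0.17, adjusted p = 0.000182) and 0.23 on the log2 scale with KD 87 (95% interval -0.14 to 0.61, adjusted p = 0.408).

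CTSL had levels of 4027, 4245 and 3749 in KD 86, 2407, 2107 and 1754 in KD 87 and 2927, 1959 and 1789 in EV. The KD 86 libraries were again separate, while KD 87 and EV overlapped. CTSL rose 1.84-fold with KD 86 (log2 0.88, SE 0.22, adjusted p = 0.0109), and its difference with KD 87 was -0.07 on the log2 scale (95% interval -0.55 to 0.42, adjusted p = 0.87). The files hold 9 rows for CTSL pseudogenes, and 0 of them were above 0 in any library.

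CTSF had levels of 806.0, 876.7 and 1099 in KD 86, 738.2, 558.6 and 839.0 in KD 87 and 464.9, 336.4 and 508.6 in EV. Both knockdowns lay above all EV libraries and overlapped each other. CTSF rose 2.13-fold with KD 86 (log2 1.09, SE 0.23, adjusted p = 0.00488), and its log2 difference with KD 87 was 0.71 (95% interval 0.20 to 1.22, adjusted p = 0.0771). CTSF passed with KD 87 in the paired fit (adjusted p = 0.00693).

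Of the 3 cysteine exopeptidases CTSZ, CTSC and CTSH, only CTSZ passed the test with KD 86, and none passed with KD 87. CTSZ, a carboxypeptidase that can also bind integrins, had levels of 5189, 5592 and 4714 in KD 86, 3203, 3239 and 2902 in KD 87 and 3096, 3131 and 2708 in EV. The KD 86 libraries stood apart, and KD 87 and EV overlapped. CTSZ was 1.73-fold higher with KD 86 (log2 0.79, SE 0.17, adjusted p = 0.00481) and differed by 0.07 on the log2 scale with KD 87 (95% interval -0.30 to 0.43, adjusted p = 0.829).

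CTSC, the dipeptidyl peptidase that activates the serine proteases of leukocyte granules, had levels of 7477, 6212 and 6579 in KD 86, 6231, 5025 and 5343 in KD 87 and 5928, 5092 and 5455 in EV. Its KD 86 libraries were only slightly above EV, and KD 87 overlapped EV throughout. The log2 difference was 0.30 with KD 86 (95% interval -0.10 to 0.69, adjusted p = 0.216) and 0.01 with KD 87 (95% interval -0.39 to 0.40, adjusted p = 0.984). All 6 granule proteases listed (ELANE, PRTN3, GZMA, GZMB, CMA1 and TPSAB1) were at 0 in all 9 files.

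CTSH, an aminopeptidase, had few reads, 727 over the KD 86 libraries, 340 over KD 87 and 465 over EV. Its level was 253.4, 226.0 and 239.4 in KD 86, 93.0, 94.9 and 140.8 in KD 87 and 198.8, 95.7 and 193.3 in EV. KD 86 lay above EV and KD 87, and the second EV library lay with KD 87. The log2 difference was 0.63 with KD 86 (95% interval -0.04 to 1.30, adjusted p = 0.128, and 0.0403 in the paired fit). With KD 87 it was -0.52 (95% interval -1.19 to 0.15, adjusted p = 0.297), and without EV replicate 2 it was -0.86 with an adjusted p of 0.0385.

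CTSD, the aspartic endopeptidase of the lysosome, had levels of 2417, 2368 and 2315 in KD 86, 1595, 1884 and 2226 in KD 87 and 1743, 1255 and 1508 in EV. The KD 86 libraries were tightly grouped above all others, and KD 87 overlapped EV. CTSD rose 1.59-fold with KD 86 (log2 0.67, SE 0.19, adjusted p = 0.0203), a call lost without KD 86 replicate 1 (0.053) or replicate 2 (0.0655). Its log2 difference with KD 87 was 0.34 (95% interval -0.08 to 0.76, adjusted p = 0.278).

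CTSA, a serine carboxypeptidase also known as protective protein, binds the lysosomal glycosidases GLB1 (beta-galactosidase) and NEU1 (sialidase) in a complex that keeps both stable. Its level was 6180, 7637 and 6322 in KD 86, 5305, 4577 and 3709 in KD 87 and 1491, 1907 and 1687 in EV. All 3 groups were separate. CTSA rose 3.96-fold with KD 86 (log2 1.99, SE 0.20, adjusted p = 0.000114) and 2.66-fold with KD 87 (log2 1.41, SE 0.20, adjusted p = 0.00326). In GENCODE v29, exons of PLTP and NEURL2 overlap exons of CTSA on the opposite strand, and the strand setting of the authors' counting is not given in the sources used here. NEURL2, whose highest deposited value was 88, rose with KD 86 (log2 1.11, adjusted p = 0.0144), a call lost without KD 86 replicate 2 (0.0625) or replicate 3 (0.0541), and had a log2 difference of 0.83 with KD 87 (adjusted p = 0.096, and 0.0435 in the paired fit). PLTP had log2 differences of 0.52 with KD 86 (adjusted p = 0.147, and 0.0103 in the paired fit) and -0.23 with KD 87 (adjusted p = 0.617). The part of these overlapping genes in the reads of CTSA was not tested.

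The partners of CTSA moved with KD 86, and NEU1 also with KD 87. GLB1 averaged 1989 ± 105.6 in KD 86, 893.1 ± 116.9 in KD 87 and 794.8 ± 10.4 in EV (SD, n = 3 each), a 2.50-fold rise with KD 86 (adjusted p = 0.000344) and a log2 difference of 0.16 with KD 87 (adjusted p = 0.566). NEU1 averaged 1226 ± 77.4 in KD 86, 796.2 ± 36.0 in KD 87 and 508.4 ± 29.98 in EV, a rise of 2.41-fold (adjusted p = 0.000337) and 1.57-fold (adjusted p = 0.0277). The NEU1 call with KD 87 was lost in 5 of 9 fits that each left out 1 library, with an adjusted p of up to 0.11.

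**Figure D2:**
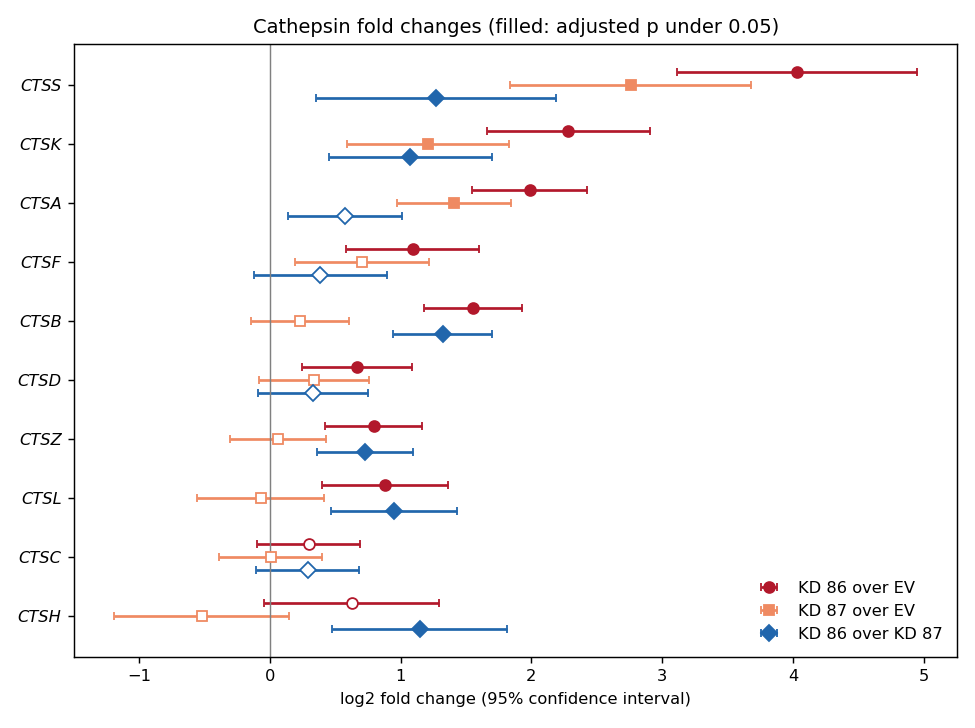
Log2 fold change of the 10 cathepsins (x axis) for SPANX KD 86 over EV, SPANX KD 87 over EV and KD 86 over KD 87, with 95% intervals from limma. Filled points passed the test. Against EV, CTSS, CTSK and CTSA are to the right of 0 with both constructs. For KD 87 over EV the other 7 intervals are drawn around points that did not pass, and that of CTSF (0.20 to 1.22) lies to the right of 0.

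The constructs were also compared directly, which leaves the EV libraries out of the difference. Of the 10 cathepsins, 6 were higher with KD 86 than with KD 87 and 0 were lower, where 12.9% of tested genes were higher and 12.6% lower. CTSB had the smallest adjusted p of the 6, at 8889 ± 788.4 in KD 86 and 3553 ± 226.7 in KD 87 (SD, n = 3 each), a 2.50-fold difference (log2 1.32, SE 0.17, adjusted p = 0.000555). CTSL differed 1.93-fold (log2 0.95, adjusted p = 0.00995), CTSZ 1.66-fold (log2 0.73, adjusted p = 0.00962), CTSK 2.11-fold (log2 1.07, adjusted p = 0.0179) and CTSH 2.21-fold (log2 1.15, adjusted p = 0.0188). Paired by number, 7 were higher, where 21.9% of tested genes were higher and 22.2% lower. CTSB and CTSL kept their call in all 9 fits that each left out 1 library. All 3 KD 86 libraries lay above all 3 KD 87 libraries for 7 of the 10 cathepsins, CTSA, CTSB, CTSD, CTSH, CTSK, CTSL and CTSZ, as for 22.4% of tested genes.

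The difference in CTSS between the constructs was 2.42-fold (log2 1.27, 95% interval 0.35 to 2.19, adjusted p = 0.0455). It passed in 2 of the 9 fits that left out a library, with adjusted p up to 0.148, and without KD 86 replicate 1 the log2 difference was 1.85. CTSK and CTSH passed in 5 of the 9 each (adjusted p up to 0.0673 and 0.0677) and CTSZ in 8 (0.0507 without KD 86 replicate 2). For CTSA the log2 difference was 0.58 (95% interval 0.14 to 1.01, adjusted p = 0.0549), and it passed in the paired fit (0.0139) and without EV replicate 2 (0.0389). For CTSC, CTSD and CTSF the differences were 0.29, 0.33 and 0.39, and none passed.

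Libraries of the same replicate number tended to deviate together, least so in replicate 1. Each knockdown library was therefore also set against the EV library of its number. With KD 86 every pair must be above 0, since all KD 86 libraries lay above all EV libraries for the 10 genes (34.6% of tested genes were above 0 in all 3 pairs). The log2 ratio was even for CTSB, between 1.53 and 1.57, and for CTSZ, between 0.74 and 0.84, and it varied for CTSS, at 3.05, 4.54 and 4.51. With KD 87, CTSZ was above 0 in all 3 pairs, by 0.05 to 0.10, besides the 5 genes whose KD 87 and EV libraries did not overlap, and 31.2% of tested genes were above 0 in all 3. CTSH was below 0 in all 3 pairs with KD 87, at -1.09, -0.01 and -0.45, as were 29.7% of tested genes. CTSK with KD 87 ran from 0.48 to 1.65.

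**Figure D3:**
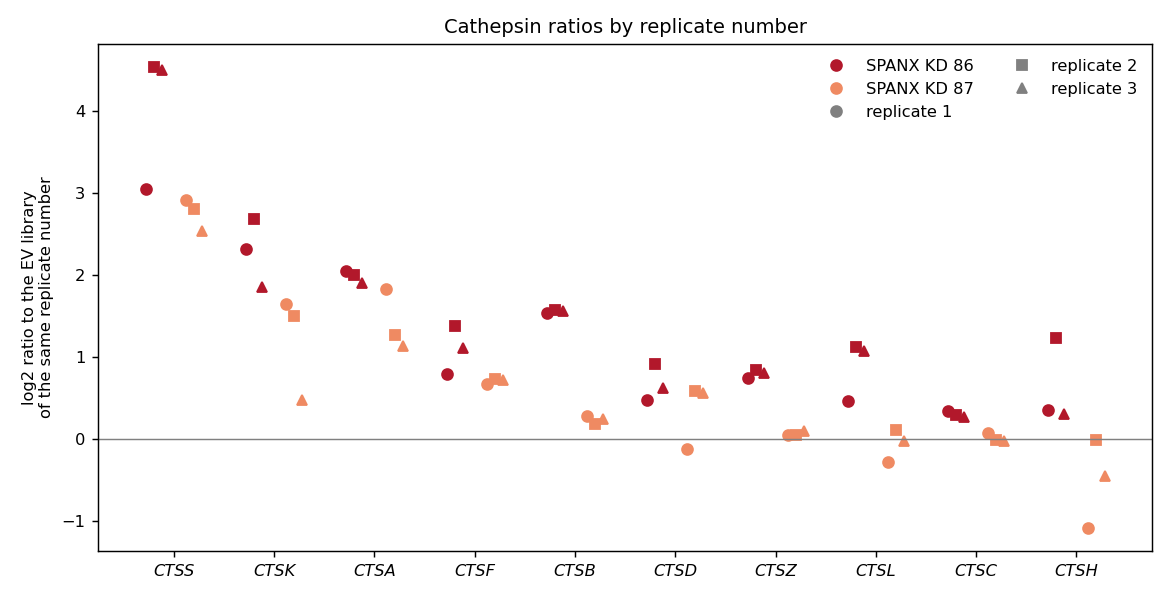
Log2 ratio of each knockdown library to the EV library of the same replicate number, for the 10 cathepsins, SPANX KD 86 before SPANX KD 87; each point is 1 pair and the line marks 0. All KD 86 points lie above 0, and the KD 87 points of CTSH lie below it.

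Of 5 further cathepsins, only CTSO, a cysteine cathepsin, could be tested, and it was higher with both constructs. It averaged 68.1 ± 11.0 in KD 86, 73.8 ± 22.9 in KD 87 and 27.9 ± 9.17 in EV (SD, n = 3 each), with log2 changes of 1.30 (adjusted p = 0.0152) and 1.38 (adjusted p = 0.0308). These calls passed in 7 and 5 of the 9 fits that left out a library. CTSE and CTSG were listed at 0 in all files. CTSV was above 0 in the KD 86 and EV files alone, and CTSW in the KD 87 files alone, so neither was compared.

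The cathepsin inhibitors were mostly at 0: of 14 listed, 4 were tested, and 1 rose with each construct (3 with KD 86 and 1 with KD 87 in the paired fit). The shares of all tested genes that rose were 18.0% with KD 86 and 5.87% with KD 87 (27.0% and 16.2% in the paired fit). A2M, a plasma protein that traps proteases, rose 5.15-fold with KD 86 (adjusted p = 0.00059) and 4.10-fold with KD 87 (adjusted p = 0.00565), to 186.4 ± 49.4 and 149.8 ± 45.1, against 35.6 ± 11.2 in EV (SD, n = 3 each). The cystatins, which block cysteine cathepsins, did not pass in the fit used for the calls. CST3 had a log2 difference of 0.56 with KD 86 (adjusted p = 0.0593) and 0.30 with KD 87 (0.397), and CSTB -0.21 (0.382) and -0.01 (0.973). CST3 passed with KD 86 in the paired fit (0.00671), without EV replicate 1 (0.0397) and with a length trend removed (0.00464). CST2 rested on 52 reads over the KD 86 libraries, 41 over KD 87 and 18 over EV. Its log2 difference was 1.63 with KD 86 (adjusted p = 0.0938, and 0.0166 in the paired fit) and 1.30 with KD 87 (adjusted p = 0.26). With a length trend removed CST2 was at 2.17 with KD 86 (adjusted p = 0.0334) and 1.55 with KD 87 (0.167). In the paired fit with that trend removed, CST3 (0.0265) and CST2 (0.0299) also passed with KD 87. Without EV replicate 1 the CST2 differences were 0.92 and 0.60, without EV replicate 3 they were 2.38 (adjusted p = 0.0207) and 2.05, and with a pseudocount of 10 they were 0.74 and 0.54.

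Of 11 genes that tag lysosomal enzymes or sort them to the lysosome, all tested, 4 rose and 0 fell with KD 86, and 3 rose and 0 fell with KD 87, where 18.0% and 5.87% of all tested genes rose. In the paired fit 6 rose and 1 fell with KD 86 and 6 rose and 0 fell with KD 87, where 27.0% and 16.2% of all rose. The 1 that fell was GGA1 (log2 -0.84 with KD 86, adjusted p = 0.000856, and 0.0513 without the block), which was at 0.16 with KD 87 (adjusted p = 0.767 without the block). M6PR was at -0.28 with KD 86 and 0.29 with KD 87, and NAGPA at -0.37 and -0.17, and neither passed. GNPTAB, which starts the mannose 6-phosphate tag, averaged 1821 ± 203.5 in KD 86, 856.4 ± 216.3 in KD 87 and 378.8 ± 124.8 in EV (SD, n = 3 each), a rise of 4.97-fold (adjusted p = 0.000269) and 2.29-fold (adjusted p = 0.0225). The sorting receptors SORT1 and SORL1 rose with both constructs, SORT1 by 1.98-fold and 2.21-fold and SORL1 by 2.56-fold and 2.96-fold. IGF2R, the large mannose 6-phosphate receptor, rose 2.74-fold with KD 86 (adjusted p = 0.0341) and had a log2 difference of 1.25 with KD 87 (adjusted p = 0.118, 0.00262 in the paired fit, 0.0146 without EV replicate 2 and 0.0443 without KD 87 replicate 3). Leaving out 1 library ended the calls of SORT1, SORL1 and IGF2R and that of GNPTAB with KD 87 in 2 to 4 of 9 fits, with adjusted p of up to 0.132.

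Of 7 other lysosomal peptidases tested, 5 rose and 1 fell with KD 86, and 3 rose and 0 fell with KD 87, with the same counts in the paired fit. Of all tested genes 18.0% rose and 17.6% fell with KD 86, and 5.87% rose with KD 87 (27.0%, 28.3% and 16.2% in the paired fit). CPVL was the 1 that fell with KD 86 (log2 -1.74, adjusted p = 0.00214). With KD 87 its log2 difference was 0.02 (adjusted p = 0.973), and it was lower with KD 86 than with KD 87 (log2 -1.77, adjusted p = 0.00265). LGMN (legumain), which cleaves several cathepsins into their mature chains, rose 2.04-fold with KD 86 (adjusted p = 0.00175) and 1.83-fold with KD 87 (adjusted p = 0.0138, and 0.072 without KD 87 replicate 1). CPQ, a lysosomal carboxypeptidase, rose 4.25-fold with KD 86 (adjusted p = 0.00281) and had a log2 difference of 0.55 with KD 87 (adjusted p = 0.398). PRCP, which removes residues next to proline, rose 1.86-fold and 1.67-fold, and TPP1, a tripeptidyl peptidase, 2.62-fold and 2.08-fold. The KD 87 calls of PRCP (adjusted p = 0.0326) and TPP1 (0.049) held in 2 of 9 fits each when 1 library was left out.

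The transcripts of the factors that bind the E-box did not pass with either construct. MITF averaged 563.4 ± 225.2 in KD 86, 725.7 ± 34.1 in KD 87 and 583.0 ± 104.1 in EV (SD, n = 3 each; adjusted p = 0.784 with KD 86 and 0.451 with KD 87). TFEB had log2 differences of -0.37 (adjusted p = 0.596) and -0.34 (0.698), and TFE3 of -0.06 (0.883) and -0.16 (0.719). Of the 14 genes of this list, which holds the factors, their regulators and known targets, 5 rose with KD 86 and 2 with KD 87, and 0 fell, where 18.0% and 5.87% of all tested genes rose. In the paired fit 7 and 4 rose, where 27.0% and 16.2% of all did. FNIP1, a partner of folliculin, a protein that restrains these factors, rose 3.27-fold with KD 86 (adjusted p = 0.000266) and 1.90-fold with KD 87 (adjusted p = 0.0185). PPARGC1A, a mitochondrial coactivator and MITF target, rose 2.18-fold with KD 86 (adjusted p = 0.0174) and 3.66-fold with KD 87 (adjusted p = 0.00631). When 1 library was left out, the KD 87 call of FNIP1 and the KD 86 call of PPARGC1A each held in 6 of 9 fits (adjusted p up to 0.0887 and 0.0611).

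**Figure D4:**
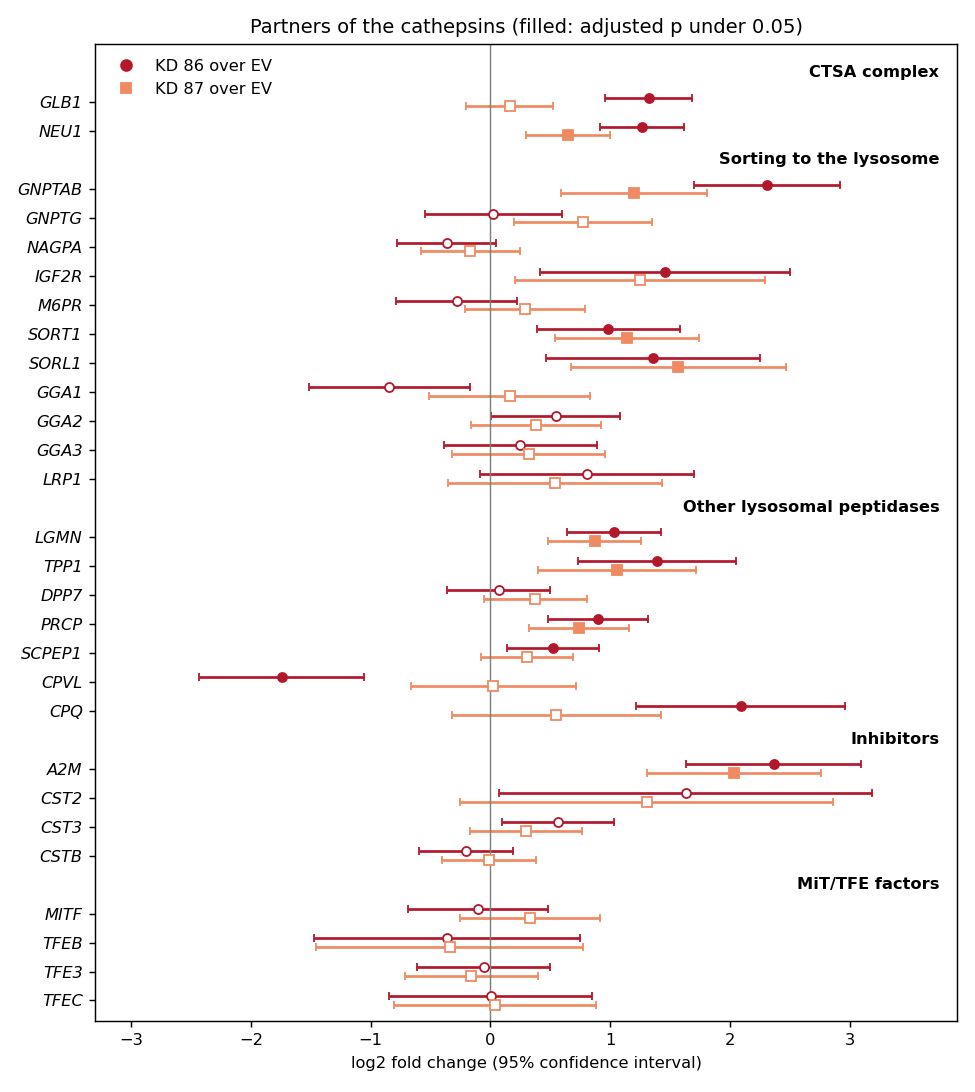
Log2 fold change against EV with 95% intervals from limma for named partners of the cathepsins (complex, sorting, inhibitors, peptidases and E-box factors), SPANX KD 86 before SPANX KD 87; filled points passed the test. GNPTAB and A2M are to the right of 0 with both constructs, and MITF, TFEB and TFE3 have intervals that include 0.

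MHC class II genes were followed because CTSS, CTSL and CTSF process the invariant chain. Of 9 tested, 2 rose with KD 86 and 0 with KD 87, and 0 fell with either, where 18.0% and 5.87% of all tested genes rose. In the paired fit 4 rose and 1 fell with KD 86, beside 27.0% and 28.3% of all genes, and 1 rose and 2 fell with KD 87, beside 16.2% and 14.8%. The 2 that rose without the block were CD74 and HLA-DMA. HLA-DMA rose 2.36-fold with KD 86 (adjusted p = 0.00835). With KD 87 its log2 difference was -0.48 (adjusted p = 0.311, and 0.0411 in the paired fit). It was higher with KD 86 than with KD 87 (log2 1.72, adjusted p = 0.00205). CD74, the invariant chain, averaged 11240 ± 2534 in KD 86, 8919 ± 3777 in KD 87 and 5086 ± 1476 in EV (SD, n = 3 each; adjusted p = 0.0212 and 0.173, and 0.0293 with KD 87 in the paired fit), and the KD 86 call was lost in 3 of 9 fits without 1 library. HLA-DPB1, a chain of the class II molecule HLA-DP, had log2 differences of -0.50 with KD 86 (adjusted p = 0.135, and 0.0178 in the paired fit) and -0.85 with KD 87 (adjusted p = 0.054, 0.00289 in the paired fit and 0.0376 without EV replicate 2). Of 5 interferon-response factors tested, 2 rose with KD 86 and 0 with KD 87, 0 fell, and IRF8 and SPI1 were at 0. By the paired fit 3 rose and 1 fell with KD 86, and 2 rose and 0 fell with KD 87. IRF1, a factor known to activate CTSS, rose 1.83-fold with KD 86 (adjusted p = 0.0152) and had a log2 difference of 0.73 with KD 87 (adjusted p = 0.0701, 0.00893 in the paired fit and 0.0338 without EV replicate 2). Its KD 86 call was lost in 3 of 9 fits without 1 library.

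Among 9 tested matrix proteins and other extracellular substrates of cathepsins, 8 rose with KD 86 and 2 with KD 87, and 0 fell, where 18.0% and 5.87% of all tested genes rose. In the paired fit 8 rose with KD 86 (27.0% of all), and 6 rose and 2 fell with KD 87 (16.2% and 14.8% of all). COL4A1, a chain of basement membrane collagen, rose 4.55-fold (adjusted p = 0.00048) and 3.36-fold (adjusted p = 0.00651). ACAN, the core protein of aggrecan, averaged 1151 ± 506.0 in KD 86, 71.9 ± 4.52 in KD 87 and 12.7 ± 13.5 in EV (SD, n = 3 each; adjusted p = 6.31e-05 and 0.0123), and its KD 87 call was lost without EV replicate 1 (0.0546) or KD 87 replicate 1 (0.0548). LAMC1, a laminin chain, and COL4A2 rose 4.51-fold and 2.75-fold with KD 86 and did not pass with KD 87 (adjusted p = 0.0896 and 0.0822). Both passed with KD 87 in the paired fit (0.00358 and 0.00266) and without EV replicate 2 (0.0113 and 0.00923), and LAMC1 also without KD 87 replicate 3 (0.0443).

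Since CTSS marks macrophages and CTSK osteoclasts, markers of those cells were read beside them. Of 10 macrophage markers, 7 (PTPRC, CD14, AIF1, ITGAM, TYROBP, C1QA and C1QB) were at 0 in all libraries and CSF1R was above 0 in the KD 87 files alone. The 2 tested markers, LYZ and FCER1G, summed to 247.0 to 351.1 in KD 86, 390.8 to 841.1 in KD 87 and 161.2 to 286.5 in EV. LYZ, lysozyme, rose 2.39-fold with KD 87 (adjusted p = 0.0378), a call that held in 3 of 9 fits without 1 library, and did not pass with KD 86 (adjusted p = 0.299). Most of each sum was LYZ, at 237.0 to 334.8 in KD 86, 363.8 to 814.3 in KD 87 and 144.0 to 260.8 in EV. Any part of such cells in the level of CTSS was not tested.

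Of 6 osteoclast markers, CALCR, DCSTAMP and OCSTAMP were at 0, and the other 3 all rose with KD 86, as did 18.0% of tested genes. With KD 87, 0 rose and 1 fell, where 5.87% of tested genes rose and 4.46% fell. The 3 summed to 1722 to 10100 in KD 86, 468.0 to 571.3 in KD 87 and 461.3 to 508.4 in EV. In the KD 86 libraries MMP9 alone had levels of 136.4, 4214 and 8726. MMP9, a gelatinase, averaged 4359 ± 4297 in KD 86, 43.8 ± 24.8 in KD 87 and 56.4 ± 43.6 in EV (SD, n = 3 each; adjusted p = 0.0109 with KD 86, and 0.0536 without EV replicate 1). ACP5, tartrate-resistant acid phosphatase and itself a lysosomal enzyme, rose 3.39-fold with KD 86 (adjusted p = 0.000153) and did not pass with KD 87 (0.466). TNFRSF11A, the receptor RANK, had levels of 104.8, 109.5 and 85.9 in KD 86, 4.95, 8.99 and 6.94 in KD 87 and 27.7, 37.3 and 22.8 in EV. It rose with KD 86 (adjusted p = 0.00276) and fell with KD 87 (adjusted p = 0.00711), where CTSK was higher than in EV.

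Of 8 fibroblast markers, 6 were tested, 5 rose with KD 86 and 3 with KD 87, THY1 was at 0, and COL3A1 was above 0 in the KD 87 files alone. The paired fit had 6 and 4 risers. Their sum was 1143 to 1473 in KD 86, 858.5 to 1096 in KD 87 and 424.0 to 483.7 in EV. PDGFRA, a growth factor receptor, rose 7.24-fold with KD 86 (adjusted p = 0.000264) and 2.83-fold with KD 87 (adjusted p = 0.0209, held in 5 of 9 fits without 1 library). LUM, the matrix proteoglycan lumican, averaged 345.4 ± 95.3 in KD 86, 536.6 ± 166.9 in KD 87 and 99.8 ± 70.1 in EV (SD, n = 3 each; adjusted p = 0.0107 and 0.0102, the second 0.0577 without KD 87 replicate 1). Of the 9 melanocyte genes, 5 were tested, 3 rose with KD 86 and 2 with KD 87 (3 and 4 in the paired fit), and their sum was 29040 to 51140 in KD 86, 12580 to 20490 in KD 87 and 5210 to 12780 in EV. SOX10, a neural crest factor, rose 4.73-fold with KD 86 (adjusted p = 0.00112) and 2.89-fold with KD 87 (adjusted p = 0.0224, held in 5 of 9 fits without 1 library). S100A1, a calcium-binding protein, averaged 1501 ± 69.5 in KD 86, 696.4 ± 142.8 in KD 87 and 180.2 ± 63.1 in EV (SD, n = 3 each; adjusted p = 6.51e-05 and 0.00269). PMEL, on 29 reads over the KD 86 libraries, 74 over KD 87 and 46 over EV, passed with neither construct. Its log2 differences were -0.78 with KD 86 (adjusted p = 0.309) and 0.63 with KD 87 (0.507). Over all tested genes 18.0% rose with KD 86 and 5.87% with KD 87 (27.0% and 16.2% in the paired fit). The part of any of these marker groups in the cathepsin changes was not tested.

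Genes whose level followed a cathepsin most closely over the 9 libraries were found by the root mean square difference of centred log2 levels, among 11787 genes with a mean level of at least 50. For CTSS they included FBXO32 (0.19) and ANGPTL4 (0.47), and for CTSK they were TMEM59L (0.22), BTG2 (0.23) and SMPD1 (0.24). For CTSA they were DCBLD2 (0.12), MGLL (0.15) and RP4-647C14.2 (0.16), and for CTSF they were TTC39B (0.07), FZD6 (0.15) and FAM210B (0.16). FBXO32, a ubiquitin ligase subunit, had log2 changes of 3.79 with KD 86 and 2.52 with KD 87, beside 4.03 and 2.76 for CTSS. SMPD1, acid sphingomyelinase of the lysosome, had 2.26 and 1.07, beside 2.28 and 1.21 for CTSK. These are the 4 cathepsins with the largest mean change over both constructs.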

How the data were processed

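RNA from 9 A375 libraries was measured by QuantSeq 3' mRNA-Seq. The deposited value is a score: the authors scaled each library's reads by a constant and rounded to whole numbers, as the spacing of the values shows. STAR, Subread, featureCounts, edgeR and the hg19 build are named in the submitters' processing notes, without versions. Of 60420 gene IDs, 45742 were at 0 in all libraries, 400 were above 0 only in the EV and KD 86 files and 453 only in the KD 87 files, as if low genes had been removed from these sets separately, so a 0 across a set can mean filtered. For 15 IDs listed more than once with unequal values the higher was used. The 13825 IDs above 0 in both sets were tested. A count test had been planned, but the values are scaled and rounded.

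The constant of each library was recovered from the spacing of its values, giving 11.31 to 15.57 M reads, and libraries were brought to a common scale with the TMM formula (30% and 5% trims; factors 0.9891 to 1.0176). limma 3.58.1 in R 4.3.3 was fitted to log2 of the level plus 1 over all tested genes, with a variance trend, 3 group coefficients and 6 residual degrees of freedom, and p-values were two-sided and Benjamini-Hochberg adjusted, with a threshold of 0.05. The fit was tested on simulated data. Replicate numbers come from the sample titles. Deviations from the group mean correlated over 11797 genes with r between 0.176 and 0.795 for the 9 same-numbered pairs and between -0.702 and 0.216 for the 18 others, so calls and counts from a paired fit, with the number as a block, are given beside those they change. The 0.176 was between EV and KD 87 replicate 1, and the 0.216 between EV replicate 1 and KD 87 replicate 3. Because each group was centred on its mean, positive r in same-numbered pairs pushes the r of the others down.

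The cathepsins, the other gene lists and the rule for named genes were chosen with earlier results of these data known. The rule names the 10 cathepsins, CTSO, the CTSA complex, the sorting genes described, the SPANX genes above 0, MITF, TFEB and TFE3, up to 4 genes of each other list ranked by adjusted p for both constructs averaged, and the 3 genes most like each of 4 cathepsins, of which 1 is not reported here. ARNT, HORMAD1, PLTP and NEURL2 are named for their position beside a cathepsin, and CPVL because it fell. No p-value was computed over the cathepsins alone. Transcript lengths and overlaps came from GENCODE v29 (99.6% of tested genes had a length), and promoters and neighbours from RefSeq GRCh38.p14. Alternatives were other pseudocounts, scalings, filters and variance models, voom on recovered reads, removal of a length trend, the block, only the groups compared, and leaving out each library.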

Additional observations from a re-analysis of the deposited data

Results flagged for a closer look

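Altogether 6 cathepsins changed differently with the 2 constructs, by limma's test of the difference between KD 86 and KD 87. The log2 difference was 1.32 for CTSB, 1.27 for CTSS, 1.15 for CTSH, 1.07 for CTSK, 0.95 for CTSL and 0.73 for CTSZ, each higher with KD 86. The adjusted p ran from 0.000555 for CTSB to 0.0455 for CTSS, and 25.5% of all tested genes differed between the constructs in either direction. When 1 library was left out, the number of cathepsins higher with KD 86 ran from 2 to 7. Against EV, CTSH stood at 0.63 with KD 86 and -0.52 with KD 87 on the log2 scale, neither of which passed the test on its own. What separates the constructs was not tested.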

How the results depend on the processing

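The number of cathepsins higher than EV was 7 to 9 of 10 with KD 86 over all settings and when each library was left out. With KD 87 it was 3, with 2 from the 2 groups alone, 4 under the replicate block, 4 with the length trend removed, 5 with both, and 2 to 3 when 1 library was left out. Higher with KD 86 than KD 87 were 6, with 5 with values as deposited, by upper quartile or with no variance trend, 7 by median of ratios, under the block or with the length trend removed, 9 with both, and 2 to 7 when 1 library was left out (2 without KD 86 replicate 2, 3 without KD 87 replicate 2). Under the other settings, 335 of 360 cathepsin results kept direction and call, 14 gained a call, 5 lost one and 6 turned direction. When 1 library was left out these were 242, 2, 21 and 5 of 270. For other named genes, 902 of 950 kept both under the other settings and 618 of 720 when 1 library was left out. CPVL, GGA1, M6PR, NAGPA, FN1, NID1, HLA-DMA, CSPG4, S100B and PMEL are not in these counts.

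The counts of genes called against EV with KD 86 were 4923, with 7639 under the block, 7655 with the block and length trend removed, and 3046 to 6013 when 1 library was left out. With KD 87 they were 1429, with 858 from the 2 groups alone, 4285 under the block, 2215 with the length trend removed, 4854 with both, and 368 to 2553 when 1 library was left out. Between the constructs they were 3525, with 6097 under the block, 6619 with both, and 2205 to 4196. Of the cathepsins the block gained CTSH with KD 86, CTSF with KD 87 and CTSA between the constructs, and changed no other call. The cause of these shifts was not tested.

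All turns of direction were in differences that did not pass the test in any setting. CTSC with KD 87 turned to -0.003 by median of ratios, -0.005 by upper quartile and -0.028 with the length trend removed, with or without the block, and ran from -0.081 to 0.074 when 1 library was left out. CTSL with KD 87 turned to 0.041 with the length trend removed, with or without the block, and ran from -0.209 to 0.147. CTSZ with KD 87 ran from -0.001 to 0.116. CSTB with KD 87 turned to 0.011 with the length trend removed, with or without the block, and ran from -0.154 to 0.096. When 1 library was left out, MITF with KD 86 ran from -0.41 to 0.122, TFEB with KD 86 from -0.80 to 0.321, TFE3 from -0.253 to 0.15 with KD 86 and -0.356 to 0.046 with KD 87, MMP9 with KD 87 from -1.012 to 0.516, and PLTP with KD 87 from -0.381 to 0.037. The difference in CTSS between the constructs lost its call with values as deposited (adjusted p = 0.0505), by upper quartile (0.0664), with no variance trend (0.0599) and from the 2 groups alone (0.0522). Upper quartile scaling put the median of all genes at -0.114 with KD 86. Over all 9 libraries CTSH and CTSK rested on the fewest reads of the 10. In EV alone CTSS had the fewest, 231, beside 275 for CTSK and 465 for CTSH.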
